A study of Mus musculus with 2 samples.

Results

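The genes described here are those whose transcripts are all typed as snoRNA, scaRNA or snRNA in the annotation and that had at least 10 expected counts in both of the deposited adrenal libraries. They numbered 117 of 2941 annotated genes of these types (3.98%), among 55536 annotated genes. The members were thus selected on their own counts in both libraries, so their presence and level are a description and carry no test. By type they comprised 68 of 1507 snoRNA genes, 36 of 1383 snRNA genes and 13 of 51 scaRNA genes.

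Both libraries were made from total RNA of adrenal gland of male B6CASTF1/J mice, a cross of C57BL/6 and CAST strains, at an age of 14 days. Each started from 300 ng of RNA with ERCC spike-ins and a directional kit, and no treatment or genotype contrast is given. The labels call the libraries biological replicates 1 and 2 under 1 donor record and describe pools of males whose numbering differs between fields, so the spread between them may not span separate animals. The gene counts totalled 32860862 in replicate 1 and 36143532 in replicate 2. Cortical and chromaffin markers marked both libraries as adrenal, Star standing at 1756 and 2099 TPM and Th at 133 and 131. Brown fat markers were also high in both, with Fabp4 at 1427 and 1327 TPM, Ucp1 at 724 and 861 and Cidea at 396 and 378. The libraries differed in markers of other tissue: the 4 hepatocyte markers added up to 236 and 4138 TPM in replicates 1 and 2, and the 5 lymphocyte markers to 53.7 and 7.25. The part of this difference in the ratios below was not tested.

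Small nuclear RNAs form the catalytic and recognition core of the spliceosome, in which U1 pairs with the 5′ splice site and U2 with the branch point. Small nucleolar RNAs guide the chemical modification of ribosomal RNA: C/D box RNAs direct ribose methylation and H/ACA box RNAs direct pseudouridylation, while U3 is a C/D box RNA that is needed for ribosomal RNA cleavage. Small Cajal body RNAs do the same kind of guiding for the spliceosomal RNAs. Most snRNA genes of vertebrates are multicopy genes with promoters of their own, whereas most snoRNAs and scaRNAs are cut from introns of host genes.

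Sequences that carry the results come in 4 sets. The first is U1, shown because its copies fall into the U1a and U1b types; the stretch in Rnu1a1 that pairs with the 5′ splice site is in capitals, and in the other 2 the capitals mark bases that differ from Rnu1a1 or are inserted. Rnu1a1 is at chr11:87422867-87423030 on the plus strand, Rnu1b1 at chr3:96359953-96360117 and Rnu1b6 at chr3:96460024-96460189, both on the minus strand (GRCm38, which is mm10).
Rnu1a1: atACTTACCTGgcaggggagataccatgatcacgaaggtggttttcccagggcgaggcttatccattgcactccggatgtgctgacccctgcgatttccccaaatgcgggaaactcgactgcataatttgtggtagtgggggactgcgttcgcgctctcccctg
Rnu1b1: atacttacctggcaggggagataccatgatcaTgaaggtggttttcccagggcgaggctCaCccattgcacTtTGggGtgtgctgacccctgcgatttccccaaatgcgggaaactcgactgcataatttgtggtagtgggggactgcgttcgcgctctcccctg
Rnu1b6: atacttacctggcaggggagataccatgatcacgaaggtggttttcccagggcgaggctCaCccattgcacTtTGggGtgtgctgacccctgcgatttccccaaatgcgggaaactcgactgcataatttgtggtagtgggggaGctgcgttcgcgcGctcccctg

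The splice site stretch, bases 3 to 11 counted from the 5′ end, was the same in 19 of 19 U1 members. Counted from the 5′ end of Rnu1a1, 8 of 8 U1b-type entries carried T62C, C73T, C74G, A77G and a T inserted after base 71, which none of the 11 U1a-type entries did. T60C was in the 8 U1b-type entries and also in the U1a-type Gm22513. The other capitals mark only some U1b copies: C33T was in Rnu1b1 and Rnu1b2, and T156G and the G inserted after base 143 in Rnu1b6, Gm24830 and Gm26232.

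The second set is U2, shown because its copies differ by few bases and share reads. In Rnu2-10 the capitals mark bases 33 to 38, within the stretch that pairs with the branch point, and in the other 2 entries they mark differences from Rnu2-10. Rnu2-10 is at chr11:101658238-101658428, Gm23444 at chr11:83271498-83271688 and Gm24497 at chr1:72244213-72244403, all on the plus strand.
Rnu2-10: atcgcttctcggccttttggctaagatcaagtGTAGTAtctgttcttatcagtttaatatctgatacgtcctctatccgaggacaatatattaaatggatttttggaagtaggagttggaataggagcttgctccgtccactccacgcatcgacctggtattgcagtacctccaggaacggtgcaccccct
Gm23444: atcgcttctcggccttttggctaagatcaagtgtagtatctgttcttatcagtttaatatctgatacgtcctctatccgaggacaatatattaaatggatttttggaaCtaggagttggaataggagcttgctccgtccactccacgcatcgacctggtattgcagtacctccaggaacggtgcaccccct
Gm24497: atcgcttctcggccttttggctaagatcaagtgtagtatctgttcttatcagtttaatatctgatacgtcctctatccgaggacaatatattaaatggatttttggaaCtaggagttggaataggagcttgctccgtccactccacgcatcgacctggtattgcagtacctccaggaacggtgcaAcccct

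Counted from the 5′ end of Rnu2-10, Gm23444 carried G109C and Gm24497 carried G109C and C186A. The branch point stretch was the same in 12 of 12 U2 members.

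The third set is the 3′ end of U3, where the annotation holds each locus as 2 entries on the plus strand, the longer having 1 more base, in capitals. Rnu3a is at chr10:40258467-40258679 and chr10:40258467-40258680, and Rnu3b1 at chr11:87443237-87443451 and chr11:87443237-87443452.
Rnu3a, 213-base entry: ttgagagggagaggacacagtctgagtggt
Rnu3a, 214-base entry: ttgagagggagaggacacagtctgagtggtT
Rnu3b1, 215-base entry: gtgagagggagggaacgcagtctgagtgga
Rnu3b1, 216-base entry: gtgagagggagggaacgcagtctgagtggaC

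The fourth set is guide RNAs of the translation helicase genes Eif4a1 and Eif4a2, shown because RNAs of 1 host gene differed widely in level. With them is Snord17, the C/D member of highest count outside U3. Capitals mark ACA near the 3′ end in H/ACA RNAs, and the C box (TGATGA) and D box (CTGA) in C/D RNAs. Snora81 held no ACA in its last 10 bases as annotated and is in lower case throughout. Gm22988 is at chr11:69669635-69669778 and Gm25835 at chr11:69668852-69668995, both on the minus strand within Eif4a1. Gm26447 is at chr16:23111301-23111429 and Snora81 at chr16:23110756-23110933, both on the plus strand within Eif4a2, and Snord17 is at chr2:144265979-144266216 on the minus strand within Snx5.
Gm22988: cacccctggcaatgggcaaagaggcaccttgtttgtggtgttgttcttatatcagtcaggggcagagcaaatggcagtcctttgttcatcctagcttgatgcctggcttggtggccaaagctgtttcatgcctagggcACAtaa
Gm26447: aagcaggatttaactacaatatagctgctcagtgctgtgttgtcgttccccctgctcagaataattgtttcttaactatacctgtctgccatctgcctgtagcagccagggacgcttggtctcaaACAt
Snora81: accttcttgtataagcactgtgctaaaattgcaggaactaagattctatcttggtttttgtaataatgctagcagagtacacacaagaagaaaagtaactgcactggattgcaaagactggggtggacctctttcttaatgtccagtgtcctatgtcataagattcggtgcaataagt
Gm25835: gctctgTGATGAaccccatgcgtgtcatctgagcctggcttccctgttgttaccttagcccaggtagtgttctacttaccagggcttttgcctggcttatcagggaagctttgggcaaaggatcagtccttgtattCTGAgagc
Snord17: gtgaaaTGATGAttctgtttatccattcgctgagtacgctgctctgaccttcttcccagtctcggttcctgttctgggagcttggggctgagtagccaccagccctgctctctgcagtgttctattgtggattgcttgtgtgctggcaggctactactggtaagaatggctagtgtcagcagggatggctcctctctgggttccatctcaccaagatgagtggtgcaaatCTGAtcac

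Members were rare among the short annotated genes. The RSEM effective length, the number of start positions a read is allowed, was the length minus 99 bases in 117 of 117 members, so a gene of 99 bases or fewer has none. None of the 655 annotated genes under 100 bases had a count. Of 857 genes of 100 to 109 bases 4 had any count, and of 154 genes of 110 to 119 bases 10 had any, with no member among either. The members made up 9 of 331 genes of 120 to 129 bases, 29 of 554 of 130 to 139, 18 of 108 of 140 to 149, 39 of 242 of 150 to 199 and 22 of 40 of at least 200. The shortest was Snora26 with 121 bases and the longest Scarna2 with 414.

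**Figure D1:**
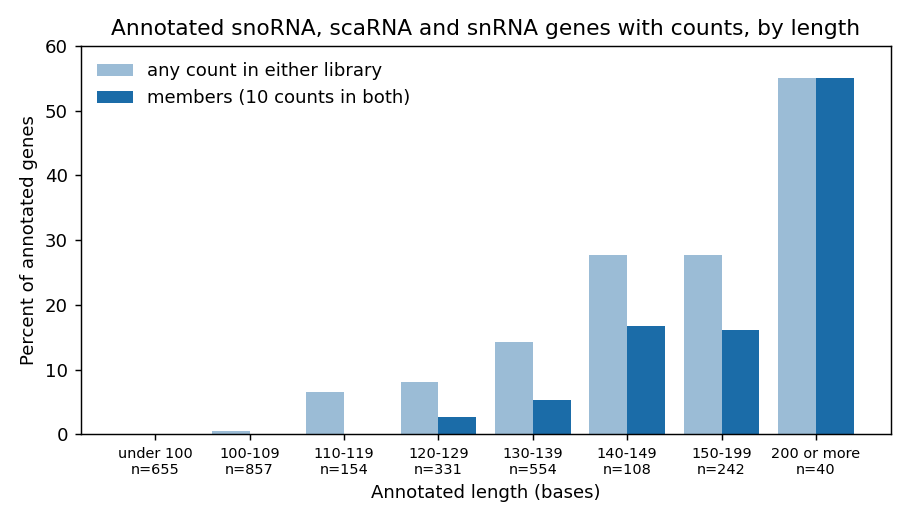
Share of annotated snoRNA, scaRNA and snRNA genes (y axis, percent) with any count in either library (light bars) and with at least 10 counts in both (dark bars), by annotated length in bases (x axis, with the number of genes). The dark bars start at 120 to 129 bases with 2.72% and reach 55.0% at 200 bases or more.

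Many short RNAs could therefore not be counted. Of 98 genes with Snord symbols, 87 were under 100 bases, and 5 of the 11 longer ones were members; of 42 genes with Snora symbols none was under 100 bases and 18 were members. Rnu6, the gene of the U6 RNA at the catalytic centre of the spliceosome, has 107 bases and was listed at 0 in both libraries. Rnu5g, a gene of the U5 RNA, has 116 bases and had 1 count in replicate 1 and 0 in replicate 2, and Rnu7, whose RNA processes histone mRNA ends, has 62 bases and was listed at 0. These values do not show that the RNAs were missing from the gland. Snora70 (9.92 and 11.1 counts), Snora34 (9 and 16) and Gm24888 (9 and 9) lay just outside the minimum, and Snora61 (21.3 and 10.6), Gm22362 (11 and 15) and Gm26493 (12 and 12) just inside.

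The members took 0.617% of gene counts in replicate 1 and 0.631% in replicate 2 (95% Clopper-Pearson intervals from 0.614 to 0.620% and from 0.629 to 0.634%), a mean of 0.624% ± 0.0103 (SD, n = 2). These intervals cover counting error only, as reads are not independent molecules. In TPM, which divides by the short effective lengths, the same members held 7.73% and 8.10% of the total. Members held 99.9% of all counts on the 2941 genes in either library, and 37 of them had at least 1000 counts in both. The 10 entries of highest count held 53.6% and 53.8% of member counts.

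By type, snRNAs held 68.2% of member counts in replicate 1 and 71.2% in replicate 2, snoRNAs 26.5% and 24.5%, and scaRNAs 5.26% and 4.34%. Symbols alone gave a different picture, since 71 of the 117 entries carry only a Gm identifier. Entries named as U1, U2, U11 or U12 genes (symbols Rnu1, Rnu2, Rnu11, Rnu12) held 8.36% and 8.54% of member counts, and entries with Snora symbols 4.67% and 4.09%. The classes used below therefore also take the type and the sequence. U1, U2 and U3 entries have at least 90% identity to a named gene of that family. Gm snoRNAs were set to C/D or H/ACA by their boxes, the C and D boxes being read first. Scarna10, typed as snoRNA, was placed with the Cajal body RNAs by its symbol, so that class has 14 entries against 13 of type scaRNA.

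**Figure D2:**
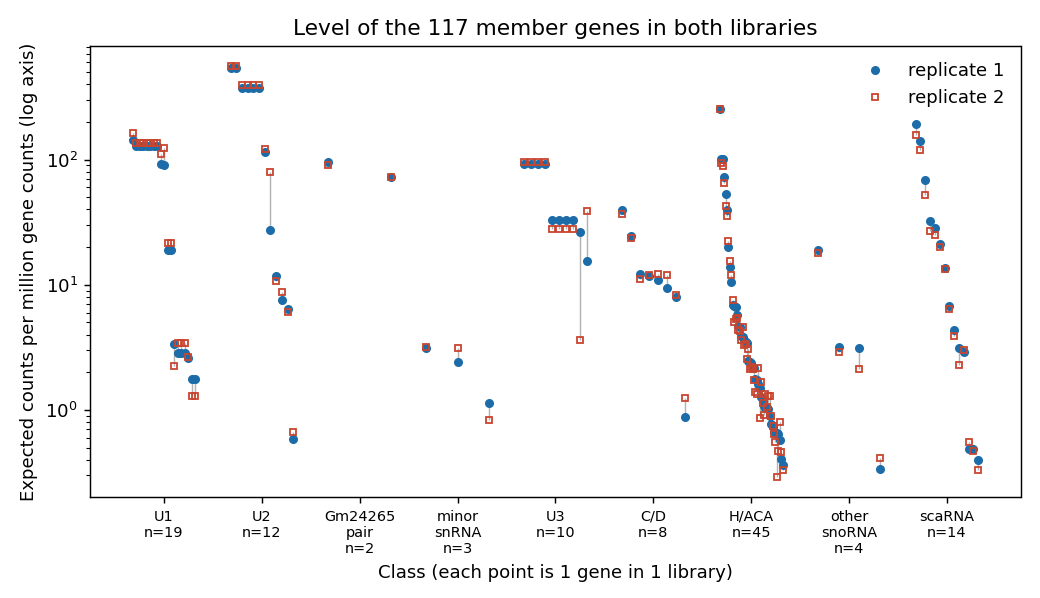
Expected counts scaled to a common total of gene counts (CPM; y axis, log scale) of each of the 117 members in replicate 1 (filled circles) and replicate 2 (open squares), by class (x axis, with the number of entries); grey lines join the libraries. The U2 entries reach the highest levels, and the long joining lines belong to Gm24497 in U2 and to the 2 Rnu3a entries in U3.

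U2 was the largest class by count. Its 12 entries, all of 191 bases, summed to 90595 counts in replicate 1 and 105315 in replicate 2, or 2757 and 2914 CPM (counts scaled to a total of 1000000 gene counts). That was 44.7% and 46.1% of member counts. The sum was 1.06-fold higher in replicate 2 relative to gene counts (log2 0.08), and 0.02 with the spike-ins as the scale. The 12 entries had 8 distinct sequences, and the counts were divided evenly among identical copies: Gm23444 and Gm23472 had 17721 counts each in replicate 1 and 20121 each in replicate 2. Rnu2-10, Gm24950, Gm23849 and Gm23971 had 12398 and 14214 each. Such entries are 1 measurement repeated, not separate genes measured.

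Below these came Gm25939, with 3798 and 4368 counts and 3 differences from Rnu2-10 (T69C, C78T and G109C). Gm24497 had 895 counts in replicate 1 and 2898 in replicate 2, a log2 ratio of 1.56. It was the member with the largest excess in replicate 2, while the other 11 U2 entries lay between -0.12 and 0.20. Gm24497 differs from the pair Gm23444 and Gm23472 by C186A, near its 3′ end.

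The deposited posterior values did not keep the difference of Gm24497. RSEM gives a second estimate, a posterior mean with its SD, which averages over the possible divisions of shared reads. For Gm24497 this was 9327 counts (posterior SD 2070) in replicate 1 and 11764 (posterior SD 2400) in replicate 2, a log2 ratio of 0.20. Its TPM of 296 and 884 lay below its own deposited credibility bounds of 1725 to 4305 in replicate 1 and 2515 to 4855 in replicate 2. For Gm23444 the posterior mean was 14378 (SD 2658) and 14567 (SD 3413), below its expected counts of 17721 and 20121. For Gm24497 the posterior mean was 10.4-fold and 4.06-fold above the expected count, more than its 2.94-fold difference between the libraries.

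**Figure D3:**
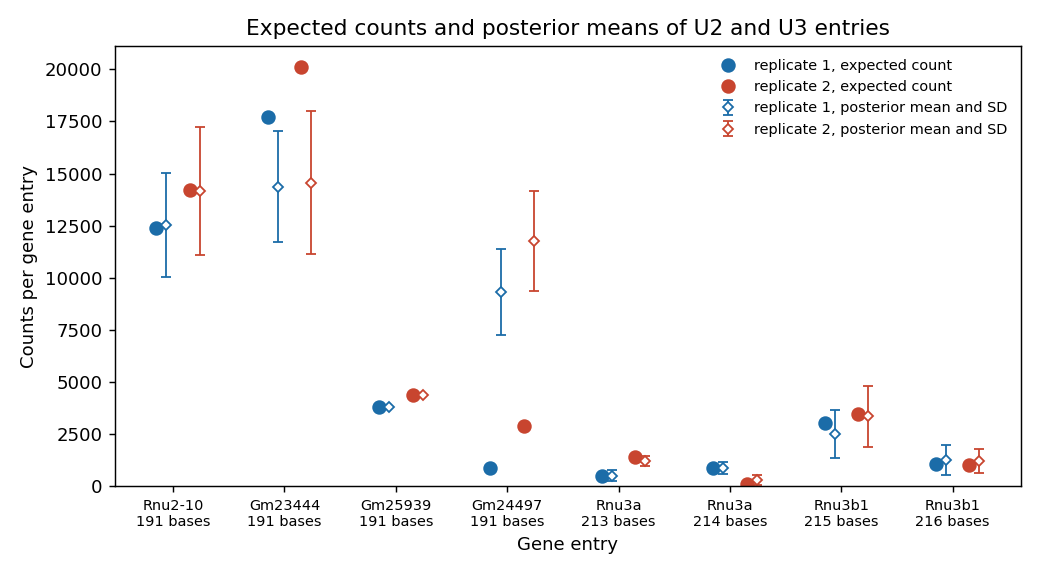
Counts per gene entry (y axis) of 4 U2 and 4 U3 entries (x axis, with length) in replicate 1 (blue) and replicate 2 (red); filled circles are expected counts, open diamonds posterior means with bars of 1 posterior SD. For Gm24497 the circles, at 895 and 2898, lie far below the diamonds, at 9327 and 11764.

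U1 followed with 19 entries and 9 distinct sequences, summing to 41941 counts in replicate 1 and 51043 in replicate 2, or 1276 and 1412 CPM. The sum was 1.11-fold higher in replicate 2 (log2 0.15), and the excess was 0.09 with the spike-ins and 0.24 with TMM factors. Rnu1a1 and 6 identical Gm entries had 4200 and 4925 counts each. Gm22513 (T60C relative to Rnu1a1) had 4687 and 5887, Gm24305 (A26G) 2986 and 4462, and Gm23238, with 4 differences, 3039 and 4026. Gm24305 and Gm23238 were 1.36-fold and 1.20-fold higher in replicate 2. All 11 U1a-type entries had log2 ratios of CPM above 0, from 0.0089 to 0.44, as did 5459 of all 16966 genes. With the spike-ins or protein-coding counts as the scale 10 of 11 did, against 4094 and 5137 of all genes. The 11 entries hold 5 distinct sequences, so they are not 11 separate measurements.

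The U1b type, which in mice is known as the more embryonic variant, held 4.16% of U1 counts in replicate 1 and 4.10% in replicate 2, with 95% Clopper-Pearson intervals of 3.97 to 4.36% and 3.93 to 4.28%. The intervals overlap, and the ratio of U1a to U1b counts was 23.2 ± 0.233 (SD, n = 2). Gm22614 and Gm25890 carried most of it, with 619 and 774 counts each. Rnu1b6, Gm24830 and Gm26232 had 93.1 and 125 each, Gm22042 had 111 and 80.6, and Rnu1b1 and Rnu1b2 had 58.5 and 46.2 each. Gm22042, Rnu1b1 and Rnu1b2 were higher in replicate 1 and the other 5 in replicate 2. Rnu1b1 differs from the other sequences of its type by 1 to 3 bases.

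Per length, U2 stood at 1.49 ± 0.0484 times U1 in TPM (SD, n = 2) and at 1.81 ± 0.0588 times U1 in counts per full-length base. The 2 scales differ because effective length shortens a 164-base RNA relatively more than a 191-base one. The pair Gm24265 and Gm24407, 141-base snRNAs on chromosome 5 whose sequence is that of the U4 RNA by textbook knowledge although no file here names them so, had 3157 and 3257 counts and 2372 and 2613 counts. They differ by G88A and C99A. In TPM the U1 sum was 5.26 ± 0.507 times that of the pair (SD, n = 2).

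The minor spliceosome, which removes a rare class of introns, was measured at the low end. Rnu12, the gene of U12, had 102 counts in replicate 1 and 115 in replicate 2. Rnu11, the gene of U11, had 37 and 30. Gm25541, a 126-base snRNA model on chromosome 2 that no file here assigns to a family, had 80 and 112. The U1 sum was 428 ± 23.1 times Rnu12 in counts and 342 ± 18.5 times in TPM (SD, n = 2). The intervals of the 3 ratios between libraries, from 0.440 to 1.23 for Rnu11, 0.778 to 1.35 for Rnu12 and 0.947 to 1.72 for Gm25541, all include 1, so no difference was detectable at this depth.

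Among the C/D RNAs long enough to be counted here, U3 had the highest counts. Its 10 entries summed to 17915 counts in replicate 1 and 19355 in replicate 2, or 545 and 536 CPM, a log2 ratio of -0.03 that turned to 0.07 with TMM factors. The 4 Rnu3b genes, all within an intron of Tex14 on the same strand, had 3051 and 3453 counts each in their 215-base entries and 1081 and 1004 each in their 216-base entries. U3b counts were 11.8 ± 0.176 times U3a counts (SD, n = 2).

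The Rnu3a locus gave the largest difference of any member in expected counts, while its sum was nearly level. Its 214-base entry had 875 counts in replicate 1 and 132 in replicate 2, a log2 ratio of -2.86. Its 213-base entry had 512 and 1396, a log2 ratio of 1.31. The sums were 1387 and 1528, a log2 ratio of 0.0022. The shorter entry thus took 36.9% of the locus in replicate 1 and 91.4% in replicate 2, and the entries differ only by the 3′ base shown above. In posterior means the differences were smaller: the 214-base entry had 877 and 313 counts, 3.07-fold higher in replicate 1 against 7.27-fold in expected counts, and the 213-base entry had 510 and 1215, 2.16-fold higher in replicate 2 against 2.48-fold. The posterior SD was 273 counts for either entry in replicate 1 and 251 in replicate 2.

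**Figure D4:**
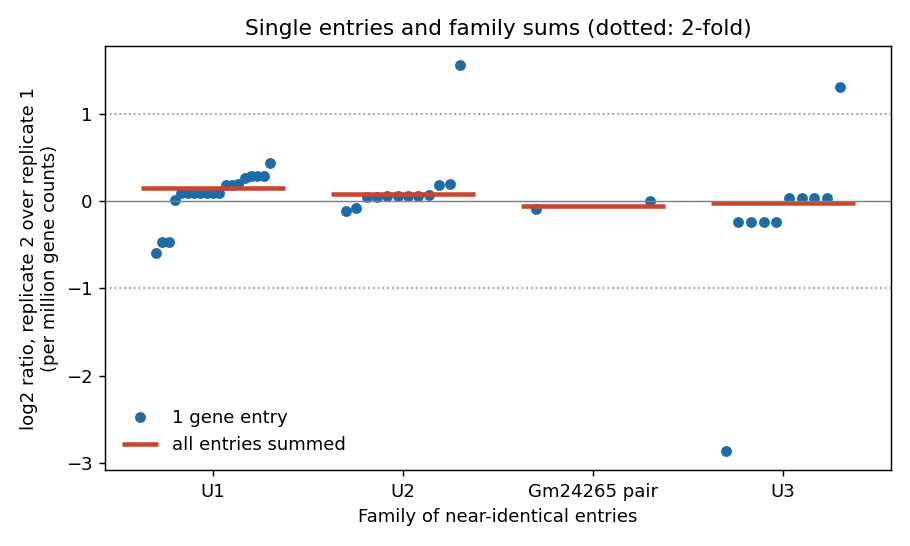
Log2 ratio of replicate 2 over replicate 1 of CPM (y axis) for each entry (blue points) and for the summed family (red lines) of U1, U2, the pair Gm24265 and Gm24407, and U3 (x axis); dotted lines mark 2-fold. The points past 2-fold are Gm24497 at 1.56 and the Rnu3a entries at 1.31 and -2.86, while the sums lie between -0.05 and 0.15.

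Across all members, the libraries were close. Of 117 entries, 4 differed over 2-fold (3.42%), against 6.47% of all 16966 genes with at least 10 counts in both libraries. They were 2 higher in replicate 2 (1.71%, against 2.76% of all genes) and 2 higher in replicate 1 (1.71%, against 3.71%). With at least 100 counts in both, 3 of 73 members differed over 2-fold (4.11%), against 2.13% of 12048 genes (1.23% higher in replicate 2 and 0.905% higher in replicate 1). These 3 were Gm24497 and both Rnu3a entries. The remaining entry, Snora61 in Snhg12, had 21.3 and 10.6 counts, and the counting interval of its ratio, 0.207 to 1.03, includes 1. Its log2 ratio of -1.09 became -0.99 with TMM factors or DESeq2 size factors, which left 3 members over 2-fold apart.

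With the U1, U2, U3 and 141-base families each summed, 78 units remained and 1 of them, Snora61, was over 2-fold apart, or none with TMM factors or DESeq2 size factors. Among the 42 units with at least 100 counts in both libraries, none was over 2-fold apart and the furthest, Gm25791 in Taf1d, was 1.34-fold higher in replicate 1. Of these units 39 were within 1.25-fold (92.9%), against 82.3% of all genes with at least 100 counts. Whole-number counts in both libraries (within 0.005), as reads assigned to 1 entry give, were found for 47 members, and none of these was over 2-fold apart. The median log2 ratio was -0.01 over the 117 members and -0.10 over all 16966 genes, a shift of all genes that TMM factors set to -0.0045 and that leaves the members' median at 0.087. Over the 78 units, which count each family once, the median was -0.08, near that of all genes, and 0.02 with TMM factors.

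Guide RNAs, meaning the 71 members outside the snRNAs and U3, comprised 45 H/ACA, 8 C/D, 14 Cajal body RNAs and 4 further models. The name serves for the whole group, although some of its members, among them Snora73a, Snora73b and Snord118, act in ribosomal RNA processing or maturation. The H/ACA class summed to 24787 counts in replicate 1 and 25718 in replicate 2, or 754 and 712 CPM, a log2 ratio of -0.08 that turned to 0.01 with TMM factors. Gm22988 in Eif4a1 was its highest member and the highest guide RNA, with 8419 and 9201 counts and a log2 ratio of -0.01. Its posterior SD of 2.52 and 2.35 counts was small, although Gm25291 in Sec24a, which encodes a vesicle coat protein, differs from it by only 4 bases. Gm25291 had 455 and 556 counts.

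Snora73a and Snora73b, 205-base RNAs of the Snhg3 locus that act in ribosomal RNA processing, had 3350 and 3236 counts and 3355 and 3407 counts. Gm26448 in Rpsa, a ribosomal protein gene, had 1293 counts in either library, and Snora74a had 1737 and 1535, 1.24-fold higher in replicate 1. Gm26447 in Eif4a2 had 2382 and 2358. Next came Gm24119 in Slc25a3, the mitochondrial phosphate carrier gene, with 659 and 804, and Snora23 in Ipo7, a nuclear import receptor gene, with 348 and 432. Among H/ACA members with at least 100 counts, Gm25791 in Taf1d (223 and 183 counts) and Gm25776 in Gtf2a1, a transcription factor gene (218 and 193), had the lowest log2 ratios besides Snora74a, at -0.42 and -0.31. Of 45 H/ACA members 29 were higher in replicate 1 (64.4%, against 67.8% of all 16966 genes), and 44 of the 45 were within 2-fold.

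The 8 C/D guide RNAs summed to 3865 counts in replicate 1 and 4227 in replicate 2. Snord17 in Snx5, a sorting nexin gene, had 1310 and 1328 counts. Snord15b and Snord15a, both in the ribosomal protein gene Rps3, had 812 and 851 counts and 261 and 298. Snord22 in Snhg1 had 359 and 441, Gm25835 in Eif4a1 383 and 435, and Gm23547 in Phb2 403 and 400. Gm22486, which RefSeq (GRCm38.p6) calls Snord94, lies in Ptcd3 and had 308 and 429 counts, 1.27-fold higher in replicate 2. Snord118, the U8 RNA that acts in large-subunit ribosomal RNA maturation, had 29 and 45 counts, and the interval of its ratio, 0.865 to 2.33, includes 1.

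Cajal body RNAs were lower in replicate 2. The 14 entries summed to 17036 counts in replicate 1 and 15599 in replicate 2, or 518 and 432 CPM, a 1.20-fold higher level in replicate 1 (log2 -0.26). It stayed below 0 under each of the 5 scalings, from -0.16 with DESeq2 size factors to -0.32 with the spike-ins. On total gene counts its distance from 0 was the largest of the classes, while with TMM factors U1 (0.24), U2 (0.18) and the sum of Rnu11, Rnu12 and Gm25541 (0.19) lay further from 0 than the Cajal body RNAs (-0.17). Scarna10 in Ncapd2, a condensin gene, had 6368 and 5684 counts and a log2 ratio of -0.30 (counting interval of the ratio itself 0.783 to 0.841). Scarna2, which has no host in the annotation, had 4650 and 4316, and Gm22009 in Kpna4, a nuclear import receptor gene, had 2262 and 1900 with a log2 ratio of -0.39. Scarna13 in Snhg10 had 1065 and 976 counts, and Gm25395 and Scarna6, both in the autophagy gene Atg16l1, had 932 and 902 and 699 and 723. Gm26083 in Snhg20 had 450 and 485, and Gm22442 in Chd3 223 and 231. Of the 14 entries 12 were higher in replicate 1 (85.7%, against 67.8% of all genes), the exceptions being Gm22767 and Gm25820. With TMM factors 8 of 14 were (57.1%, against 50.7% of all genes). With 1 group of 2 libraries, the spread between animals that this would be set against is not known.

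The 4 further snoRNA models held neither both boxes nor ACA at the 3′ end: Gm23262 in Eif4g2 (624 and 649 counts), Gm24336 in Cwf19l1 (105 and 104), Gm22362 in Ybx3 (11 and 15) and Mir1949, a microRNA symbol typed as snoRNA (104 and 77.2).

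The ACA box was about as common in snoRNA members as in all snoRNA genes of similar length. It occurred within the last 10 bases of 44 of 68 snoRNA members (64.7%), of 47.4% of all 1507 snoRNA genes and of 63.8% of the 919 with at least 120 bases. The looser ANANNA pattern of the H box was in 68 of 68 members and in 91.5% of all snoRNA genes. A C box in the first 20 bases together with a D box in the last 20 occurred in 7 of 68 members (10.3%), in 20.5% of all snoRNA genes and in 0.871% of those with at least 120 bases. Searches covered the transcript strand only, and a match is a description, not a working box.

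Host genes held most guide RNAs. Of the 71 guide RNAs 65 lay inside a gene on the same strand, 39 of them wholly within an intron and 26 overlapping an exon of some transcript, so that for the latter reads may be shared with the host. Among all members 54 were intronic, of which 15 were U1, U2 or U3 entries, 10 of them within Tex14, whose own level was 0.14 and 0.18 TPM.

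Of the 54 intronic members 45 had a higher TPM than their host in both libraries, as did 30 of the 39 intronic guide RNAs, with 7 of those 39 lower in both. The selection bears on this count, since at least 10 counts over a short effective length put a floor under a member's TPM. Gm26493, for example, had 12 counts in either library and stood at 9.87 and 9.1 TPM. Members in hosts of very low level, such as the 10 in Tex14, thus had to exceed their host. The U1, U2 and U3 entries also share reads with near-identical copies. Gm22009 stood at 282 and 219 TPM against 17.8 and 18.7 for Kpna4. Scarna13 stood at 184 and 156 TPM against 1.56 and 1.21 for Snhg10, a noncoding gene. At the other end, Snora21 had 27.2 and 28.1 TPM against 261 and 218 for Rpl23. Counts per full-length base, which do not use effective length, left 33 of the 54 above their host.

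Among the members, the level of an intronic guide was hardly related to that of its host. Guide RNAs below the count minimum are left out on their own level, so a relation over all guide RNAs cannot be judged here. Over the 39 intronic guide RNAs, which share libraries and in part hosts, Pearson's r between the log2(TPM + 1) of guide and host was 0.072 and Spearman's rho 0.045, given as a description. The log2 ratios between libraries of guides and hosts likewise had r = 0.058 and rho = -0.033.

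**Figure D5:**
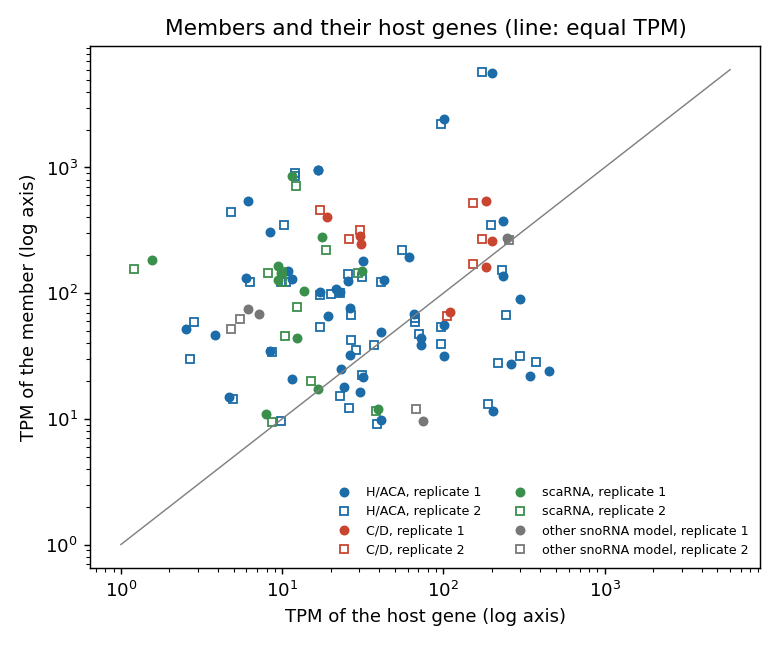
TPM of each guide RNA (y axis, log scale) against TPM of its host gene (x axis, log scale) in replicate 1 (filled) and replicate 2 (open), by class in colour; the line marks equal TPM. Points lie on both sides of the line (r = 0.072 over the 39 intronic members), with Gm22988 at the top at 5693 and 5739 TPM.

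RNAs from 1 host gene differed from one another by more than the libraries did. In Eif4a2, Gm26447 had 2382 and 2358 counts while Snora81 had 81.4 and 111 and Gm24616 had 73 and 77. Gm26447 thus had 29.2 times the counts of Snora81 in replicate 1 and 21.3 times in replicate 2, or 34.9 times per full-length base on average. In Eif4a1, Gm22988 and Gm25835, both of 144 bases and so free of any length correction between them, differed 22.0-fold and 21.2-fold in counts, and their sequences are shown above. Gm22988, like Gm26447, Snora81 and Gm24616, overlaps an exon of some host transcript, so part of its reads may be shared with Eif4a1 (200 and 173 TPM), while Gm25835 is intronic. In Snx5, Snord17 had 62.4 and 78.1 times the counts of Gm26165, which had 21 and 17. By contrast, Snora73b and Snora73a in Snhg3 differed 1.00-fold and 1.05-fold, and Gm25395 and Scarna6 in Atg16l1 1.33-fold and 1.25-fold. In all, 10 hosts held more than 1 guide RNA member.

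Host genes of the translation apparatus, taken after seeing the list as symbols starting with Rps, Rpl, Eif or Pabpc, numbered 12 and held 17 guide RNA members. These had 31.7% of guide RNA counts in replicate 1 and 33.8% in replicate 2, most of it Gm22988.

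The second quantification of the same reads, made with kallisto, gave almost none of these RNAs. Of the 117 members 114 had 0 estimated counts in both libraries. Scarna2 had 936 and 975 kallisto counts against 4650 and 4316 in RSEM. Gm22009 had 446 and 311 against 2262 and 1900, and Scarna10 had 2 and 33 against 6368 and 5684. Their kallisto effective lengths in replicate 1 were 117, 80.2 and 73.2 bases against 315, 244 and 226 in RSEM, and these 3 are the longest members. Relative to library totals, Gm22009 and Scarna2 were lower in replicate 2 in both quantifications, with kallisto log2 ratios of -0.66 and -0.08, while Scarna10 had a kallisto log2 ratio of 3.36 on 2 and 33 counts.

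Transcripts of genes for proteins that build and bind these RNAs were detected, the proteins themselves not being measured. All 75 genes of 9 lists had at least 1 TPM in both libraries and at least 10 counts, and none was over 2-fold apart. The background was 6.47% of all genes with at least 10 counts. Most of the 75 had at least 100 counts, for which the background was 2.13%, and none among 75 is near that share. Of the 75, 60 were higher in replicate 1 (80.0%, against 67.8% of all genes), and 43 with TMM factors (57.3%, against 50.7%).

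Among C/D core proteins, Nop58 had 36.5 and 36.8 TPM and Nop56 32.9 and 31.1. For the H/ACA core, Nop10 had 37.0 and 34.6 TPM and Gar1 23.9 and 18.1. All 4 genes of that list were higher in replicate 1, as were 67.8% of all genes. The median log2 ratio was -0.22 for the list and -0.10 for all genes. Of the assembly factors, the helicase gene Ruvbl2 had 16.7 and 15.0 TPM and Pih1d1 15.6 and 15.0. Sart3, a U6 recycling factor, had 10.2 and 9.11 TPM and Smn1, of the complex that loads Sm rings, 9.84 and 7.62.

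Among Sm ring genes, Snrpg had 66.0 and 72.2 TPM and Snrpb 52.3 and 49.3, while Snrpf, the lowest, had 6.29 and 4.92. Snrnp70, the U1-specific protein gene, had 74.7 and 71.6 TPM and Prpf8, at the spliceosome's core, 33.9 and 36.4. In the LSm ring that binds U6, Lsm6 had 33.9 and 32.4 TPM and Lsm4 20.3 and 21.2. Ssb, which binds new RNA polymerase III transcripts, had 49.4 and 49.9 TPM and the Integrator gene Ints1 12.8 and 12.6. The U3 processome genes Imp3 and Imp4 had 23.6 and 20.6 TPM and 15.9 and 16.5.

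A list of 12 noncoding host genes was also read, which is not the list of the members' own hosts. Of these 11 were found, and all 11 were detected with none over 2-fold apart, beside 6.47% of all genes. All 11 had at least 100 counts in both libraries, for which the share over all genes was 2.13%. The furthest apart was Snhg14, 1.85-fold higher in replicate 1. On total gene counts 10 of the 11 were higher in replicate 1 (90.9%, against 67.8% of all genes), and 6 with TMM factors (54.5%, against 50.7%). Meg3 was highest with 205 and 190 TPM, followed by Rian with 130 and 132. Snhg1, Snhg3 and Snhg12 of the list held guide RNA members, while Meg3 and Rian did not. Other noncoding hosts of members, such as Snhg10 and Snhg20, were not on the list.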

How the data were processed

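Total RNA-seq of 2 libraries was used. The authors deposited expected counts and TPM per gene, made on mm10 with GENCODE M21 as their file list says, under the column names that RSEM writes. An aligner and tool versions were not given in the sources used here. Deposited gene tables also hold posterior mean counts, and their SD and TPM credibility bounds, a signal with no fixed sum, per the file headers. The estimated counts of a second quantification carry kallisto's column names, per the file headers, and were summed to genes here. Effective length (another unit, bases) is a deposited column.

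Types came from the kallisto transcript names; sequences and hosts came from GENCODE M21. Classes used global alignment (Biopython 1.88). Ratios were log2 of counts over total gene counts with a pseudocount of 1; edgeR 4.0.16 (TMM) and DESeq2 1.42.0 supplied other scalings. Members and lists were chosen with earlier results of these data known. Named genes were the 8 of highest mean count per class, the 5 furthest apart each way with at least 100 counts, 3 genes either side of the minimum, the 2 highest of each protein list, members with kallisto counts and hosts; others were named after their values were seen. The ratio script was tested on data simulated with counting noise only: 100% of 200 genes changed 4-fold among 12048 were recovered. This does not cover spread between libraries or the division of shared reads. With 1 group, no test between groups was possible.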

Additional observations from a re-analysis of the deposited data

How the results depend on the processing

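The number of members fell from 117 to 73 with at least 100 counts and to 2 with kallisto counts; leaving out either library gave 118 to 124. The share of gene counts on members was 0.00402% with kallisto and 0.968% without mitochondrial counts in the total, and 0.617 to 0.631% in single libraries. The share of member counts on Snora symbols (4.38%) was 0% with kallisto, 3.84% in TPM and 11.7% with classes by sequence, a setting chosen after seeing the data; single libraries gave 4.09 to 4.67%. The share on named spliceosomal genes (8.45%) was 0% with kallisto, 8.15% in TPM and 69.7% with all snRNA types; single libraries gave 8.36 to 8.54%. The median log2 ratio of members (-0.0094) was -0.079 with families summed and turned to 0.087 with TMM, 0.091 with DESeq2 size factors, 0.012 in log2(TPM + 1) and 0.0019 with at least 100 counts, so it has no stable sign. The number of members over 2-fold apart (4) was 3 with TMM, DESeq2 size factors, a pseudocount of 5 or at least 100 counts, which drop Snora61, and 3 with posterior means, which drop Gm24497. It was 1 (Snora61) with families summed, chosen after seeing the data like posterior means, and 1 with kallisto, which is Scarna10 and not among the 4. Of 45 members above their host, kallisto gave 1, and single libraries gave 46 each. The direction of U1, U2 and Cajal body RNA sums was the same under 5 scalings. The sums of H/ACA, U3, C/D and the pair Gm24265 and Gm24407 changed sign with TMM. The cause of these shifts was not tested. No paired analysis was possible because there is only 1 group. RNAs under 120 bases, near-identical copies and members with few counts are the limits of depth and of read assignment here.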

Other observations

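Gm23925, a 132-base snoRNA model outside the members, had 53.3 counts in replicate 1 and 0 in replicate 2, the widest split among genes below the minimum. The length of 240 bases was chosen after seeing the data. Of the 8 members at least that long, 7 were higher in replicate 1 (87.5%, against 67.8% of all genes). With TMM factors 6 of the 8 were (75.0%, against 50.7% of all genes). Their median log2 ratio was -0.21 on total gene counts. Of the 8 members, 6 are Cajal body RNAs described above, so this is largely the same result. Over all 117 members Spearman's rho between length and log2 ratio was -0.063, given as a description. Ribosomal protein host genes of guide RNAs, 8 in all, had a median log2 ratio of -0.28 on total gene counts, against -0.10 for all genes. Of the 9 guide RNAs in them, 5 were below their host in TPM in both libraries.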
